A study of Mus musculus with 15 samples.

Results

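Immunoglobulin light-chain variable segments are the genes that encode most of the antigen-binding end of an antibody light chain. All rows of the deposited count table whose gene name begins with Igkv (kappa) or Iglv (lambda) were taken, which gave 163 of 48709 genes, 160 kappa and 3 lambda. The RNA came from islets of NOD/ShiLtJ females, an inbred strain in which autoimmune diabetes develops without a transgene or treatment, at 4, 6, 8, 10 and 12 weeks of age with 3 mice per age. No other strain was included, so each comparison is between ages of NOD mice. Islets were released with collagenase, separated on a density gradient and picked by hand, and whatever cells stayed attached to the islets were lysed with them.

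A light chain is built from a V segment, a short J segment and a constant region. During B-cell development in the bone marrow, 1 of the many V segments of a locus is joined to a J segment by the Rag recombinase, and the joined V-J unit is then transcribed and spliced to the constant region. A B cell and all of its descendants therefore carry the same V segment, and plasma cells, the antibody-secreting descendants, hold far more immunoglobulin mRNA per cell than resting B cells. In mice most light chains are kappa. Kappa V segments lie on both strands of their locus, and joining deletes the DNA between V and J when both point the same way but inverts it when they point in opposite directions.

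The 160 kappa segments lie on chromosome 6 between positions 67555497 and 70704177 and the 3 lambda segments on chromosome 16 between 19085017 and 19260859 (GRCm38). The GENCODE M21 annotation labels 100 of the kappa rows and all 3 lambda rows as V genes and the other 60 kappa rows as V pseudogenes. At least 1 count was found in at least 1 mouse for 101 of the 163 rows, and 62 were at 0 in every mouse. The rows with counts comprised 87 of the 100 kappa V genes, the 3 lambda V genes and 11 of the 60 kappa pseudogenes. In total, 92869 counts fell on these segments, of which 88371 were on kappa V genes, 3994 on lambda V genes and 504 on kappa pseudogenes.

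The segment with the most counts in a mouse was a kappa segment in 14 of the 15 mice, and 10 different kappa segments led in at least 1 mouse. Their last 90 annotated bases are shown because this stretch ends at the V-J junction and shows how far the leading segments of different mice differ from one another. Capitals mark the codon of the conserved cysteine that precedes the third complementarity-determining region, found as a TGT or TGC codon after a tyrosine codon and a second tyrosine or phenylalanine codon. The search, on the coding strand over these 90 bases, matched this pattern in 99 of the 103 V genes (96.12%) and in 34 of the 60 pseudogenes (56.67%). Reading frame and position were not checked, so a match in a pseudogene need not be the conserved cysteine. The sequences are those of the GENCODE M21 transcripts (GRCm38, a C57BL/6J genome), given 5′ to 3′ on the coding strand, and the NOD alleles were not read here.
Igkv14-126: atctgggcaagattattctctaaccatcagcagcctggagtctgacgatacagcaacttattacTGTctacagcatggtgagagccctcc
Igkv15-103: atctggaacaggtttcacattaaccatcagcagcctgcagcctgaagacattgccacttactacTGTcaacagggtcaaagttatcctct
Igkv1-110: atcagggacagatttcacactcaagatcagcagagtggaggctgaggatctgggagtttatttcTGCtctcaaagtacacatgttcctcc
Igkv1-133: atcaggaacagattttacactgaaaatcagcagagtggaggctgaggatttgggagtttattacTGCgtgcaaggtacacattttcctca
Igkv1-135: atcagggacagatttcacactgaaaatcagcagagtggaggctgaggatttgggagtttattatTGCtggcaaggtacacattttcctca
Igkv4-53: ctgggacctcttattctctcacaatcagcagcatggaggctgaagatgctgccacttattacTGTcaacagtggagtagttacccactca
Igkv6-32: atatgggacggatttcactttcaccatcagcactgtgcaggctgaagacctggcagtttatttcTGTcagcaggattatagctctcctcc
Igkv8-16: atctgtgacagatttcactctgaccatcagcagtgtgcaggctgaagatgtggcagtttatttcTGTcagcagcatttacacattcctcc
Igkv8-24: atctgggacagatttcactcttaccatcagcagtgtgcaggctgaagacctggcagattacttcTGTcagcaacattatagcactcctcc
Igkv10-96: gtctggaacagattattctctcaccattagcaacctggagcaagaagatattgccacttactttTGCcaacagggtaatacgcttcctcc
On GRCm38 these segments lie at chr6:67896172-67896642 (Igkv14-126), chr6:68437440-68437925 (Igkv15-103), chr6:68270485-68271267 (Igkv1-110), chr6:67724902-67725661 (Igkv1-133) and chr6:67609713-67610508 (Igkv1-135), all on the plus strand. The others are on the minus strand, at chr6:69648824-69649363 (Igkv4-53), chr6:70074024-70074603 (Igkv6-32), chr6:70386672-70387252 (Igkv8-16), chr6:70216858-70217421 (Igkv8-24) and chr6:68631963-68632442 (Igkv10-96). Over the 60 bases that end with the cysteine codon, Igkv1-133 and Igkv1-135 are 96.67% identical and Igkv8-16 and Igkv8-24 91.67%. Igkv14-126, Igkv15-103 and Igkv4-53 each reach at most 78.33% with any of the other 9, and Igkv10-96 at most 73.33%.

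The fifteenth mouse was led by Iglv1. The last 300 bases of Iglv1 (chr16:19085017-19085500, minus strand) and Iglv2 (chr16:19260401-19260859, minus strand) are printed because a read pair can be assigned to one or the other only where they differ. Capitals mark the 8 positions that differ, which leaves 97.33% identity.
Iglv1: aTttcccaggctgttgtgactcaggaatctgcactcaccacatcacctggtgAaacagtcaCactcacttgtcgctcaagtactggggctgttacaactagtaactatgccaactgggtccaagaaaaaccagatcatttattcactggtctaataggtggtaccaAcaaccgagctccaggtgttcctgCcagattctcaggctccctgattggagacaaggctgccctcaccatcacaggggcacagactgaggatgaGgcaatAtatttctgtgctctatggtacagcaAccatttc
Iglv2: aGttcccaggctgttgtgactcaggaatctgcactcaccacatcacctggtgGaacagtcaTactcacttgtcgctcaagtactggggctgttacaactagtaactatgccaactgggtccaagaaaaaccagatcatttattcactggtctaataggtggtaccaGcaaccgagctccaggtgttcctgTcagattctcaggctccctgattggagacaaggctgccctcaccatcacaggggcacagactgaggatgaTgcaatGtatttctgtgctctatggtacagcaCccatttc
Sharing of this kind was common in the family. The first-numbered transcript of each segment was searched for an identical stretch of 100 bases or more with another light-chain V segment. It was found in 45 segments, 37 of them with counts, and these held 31.55% of all light-chain V counts. These values are lower limits, because further transcripts of a segment were searched only as partners of the others. Values of such segments are uncertain, because how the authors' software divided reads between near-identical copies is not given in the sources used here. Igkv14-126, Igkv15-103, Igkv1-133, Igkv6-32, Igkv8-16 and Igkv8-24 shared no such stretch. Iglv1, Iglv2, Igkv1-110, Igkv1-135, Igkv5-45, Igkv6-20, Igkv9-120 and Igkv10-96 did, and for Igkv6-20 it reached 55.8% of its 100-base windows. Igkv4-53 showed none in its first-numbered transcript of 292 bases, but the pseudogene Igkv4-60 shared 20 of its 100-base windows with Igkv4-53.

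Library totals ran from 25407492 to 41616275 counts with a median of 28004882, a far smaller spread than that of the light-chain counts. The fit across all genes kept 16554 of 48709 genes, among them 68 of the 163 segments. The markers of islet endocrine cells were present throughout, and 6 of the 7 fell between 4 and 12 weeks, against 27.2% of all genes tested. Counts of 5 enterocyte genes (Fabp2, Lct, Sis, Apoa4 and Muc2) summed to 1266 in replicate 2 at 6 weeks and 7032 in replicate 1 at 12 weeks, against 1 to 9 in the other 13 mice. The intestine is rich in plasma cells, so the number of segments called and the summed level are also given without these 2 mice where that changes them, and the part of intestinal tissue in them was not tested. In bulk RNA, fewer cells of a type and less RNA per cell cannot be told apart.

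Summed light-chain V RNA was low at 4 and 6 weeks and high from 8 weeks on. The 3 mice at 4 weeks had 273, 17 and 29 light-chain V counts, and those at 6 weeks had 305, 107 and 904. At 8 weeks the sums were 1635, 7587 and 9881, at 10 weeks 15847, 16828 and 4977, and at 12 weeks 8199, 15100 and 11180. Every mouse of 8 weeks or older lay above every younger mouse. Divided by TMM-adjusted library sizes and scaled to a common depth (CPM), the means were 3.995 ± 5.385 at 4 weeks, 16.83 ± 16.91 at 6 weeks, 227.6 ± 151.2 at 8 weeks, 387.0 ± 206.3 at 10 weeks and 373.8 ± 121.1 at 12 weeks (SD, n = 3 each).

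Relative to 4 weeks, the mean CPM was 4.213-fold higher at 6 weeks, 56.97-fold higher at 8 weeks, 96.87-fold higher at 10 weeks and 93.57-fold higher at 12 weeks. On the scale of log2(CPM + 0.1), the step from 6 to 8 weeks was the largest, 4.04, and the 2 ages did not overlap. The steps from 4 to 6 weeks (2.34), from 8 to 10 weeks (0.94) and from 10 to 12 weeks (0.08) were between overlapping ages. From 4 to 12 weeks the log2 difference was 7.40 without overlap, and it was 7.62 without the 2 mice with enterocyte genes and 8.53 without replicate 1 at 4 weeks, the mouse with the most V counts of its age. No p is given for these sums, since a score over members chosen with results in view has no independent test.

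**Figure D1:**
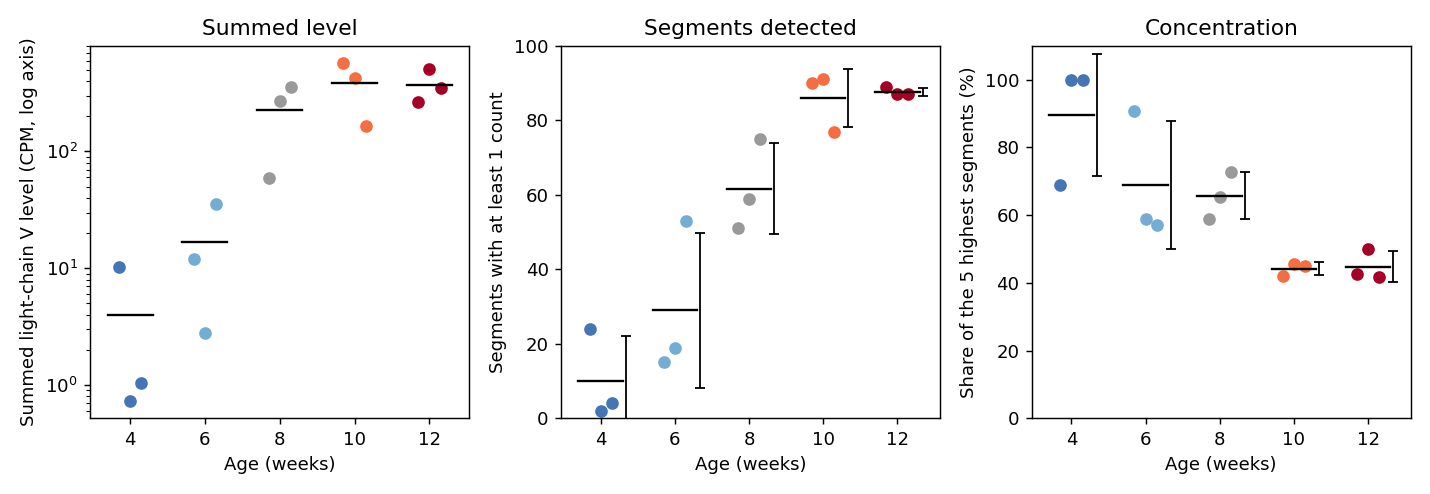
Summed light-chain V level (CPM, log axis), number of segments with at least 1 count, and share of light-chain V counts held by the 5 highest segments (%), for each mouse (points) at 4 to 12 weeks, with the arithmetic mean of 3 mice (line) and, in the middle and right panels, its SD (bar, cut off at 0). The level is above 50 CPM in every mouse from 8 weeks, while the share of the 5 highest segments falls below 50% in every mouse from 10 weeks.

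The constant regions, which every light chain of a class shares, gave a measure that does not depend on the V segment used. Igkc, the kappa constant gene, had 323, 24 and 53 counts at 4 weeks, 430, 273 and 1344 at 6 weeks, 3016, 10547 and 14362 at 8 weeks, 29761, 28101 and 7491 at 10 weeks and 14240, 23703 and 18624 at 12 weeks. Igkc was low in the same mice as the V segments, and the ratio of V counts to light-chain constant counts stayed between 0.369 and 0.769 in all 15 mice. Igkc rose from 4 to 12 weeks by 6.92 log2 units (SE 1.11, adjusted p = 0.00048, edgeR quasi-likelihood test). Here and below, the SE is derived from the F statistic of that test. All 4 light-chain constant genes that could be tested rose in that comparison, against 26.3% of all genes, and Iglc4 was at 0 throughout. The 10 annotated Igkj and Iglj rows were at 0 counts in every mouse. Summed heavy-chain V counts (185 Ighv rows) were 0.413 to 1.46 times the light-chain V counts of the same mouse.

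The number of segments detected rose with age and was nearly the same in all mice at 12 weeks. At least 1 count was present for 24, 2 and 4 segments at 4 weeks, 15, 19 and 53 at 6 weeks, 51, 59 and 75 at 8 weeks, 90, 91 and 77 at 10 weeks and 89, 87 and 87 at 12 weeks. The segments detected in all 3 mice of an age numbered 1 at 4 weeks, 6 at 6 weeks, 42 at 8 weeks, 74 at 10 weeks and 79 at 12 weeks. Over the 3 mice together, 27 segments had a count at 4 weeks and 94 at 12 weeks. Because a mouse with more counts shows more segments, every mouse with at least 900 light-chain V counts was also thinned to 900, which left out 5 mice at 4 and 6 weeks. At that depth 52.95 segments were expected in replicate 3 at 6 weeks, 47.2, 38.39 and 46.12 at 8 weeks, 62.69, 65.56 and 62.77 at 10 weeks and 64.65, 61.21 and 65.5 at 12 weeks. At equal depth, the mice at 8 weeks thus showed fewer segments than any mouse at 10 or 12 weeks, and also fewer than the 1 mouse at 6 weeks.

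Counts were concentrated on fewer segments at 8 weeks than at 10 and 12 weeks. The 5 highest segments of each mouse held 68.86%, 100% and 100% of its light-chain V counts at 4 weeks and 90.82%, 58.88% and 57.08% at 6 weeks. They held 58.96%, 65.31% and 72.83% at 8 weeks, 41.94%, 45.5% and 45.09% at 10 weeks and 42.74%, 49.98% and 41.77% at 12 weeks. The 8-week and 10-week mice did not overlap, at full depth or when thinned to 900 counts, where the means were 65.98% ± 7.195 at 8 weeks, 44.45% ± 2.31 at 10 weeks and 44.98% ± 4.437 at 12 weeks (SD, n = 3). The effective number of segments (the inverse of the Simpson index, which equals the number of segments if all had the same count) was 9.759, 8.028 and 4.111 at 8 weeks, 19.4, 16.53 and 14.69 at 10 weeks and 19.03, 14.97 and 18.27 at 12 weeks. In the mice at 4 weeks and in 2 of those at 6 weeks, with 305 counts or fewer, such shares rest on too few counts to be set beside those of older mice.

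**Figure D2:**
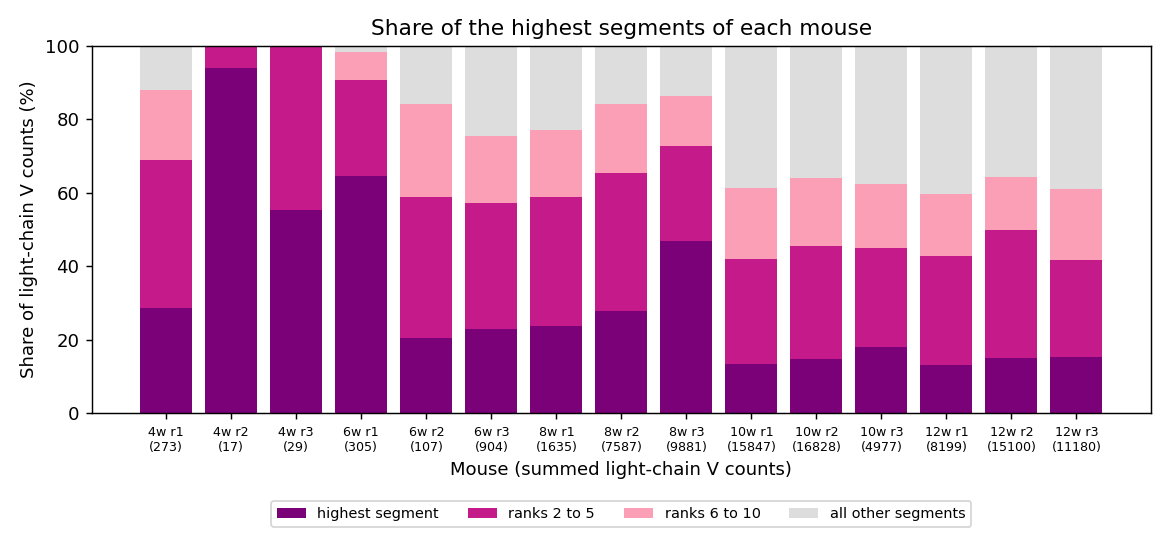
Share of the light-chain V counts of each mouse (%) held by its highest segment, by ranks 2 to 5, by ranks 6 to 10 and by all other segments, with the summed light-chain V counts of the mouse in brackets under its label. The highest segment alone takes 23.67% to 46.96% at 8 weeks and 13.03% to 18.04% at 10 and 12 weeks.

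Different mice were led by different segments. At 4 weeks the highest segment was Igkv1-133 in replicate 1 (28.57% of 273 counts) and Igkv14-126 in replicates 2 and 3 (94.12% of 17 counts and 55.17% of 29). At 6 weeks it was Igkv14-126 (64.59%), Igkv15-103 (20.56%) and Iglv1 (22.79%), and at 8 weeks Igkv14-126 (23.67%), Igkv6-32 (27.88%) and Igkv8-24 (46.96%). At 10 weeks Igkv1-135 (13.48%), Igkv10-96 (14.7%) and Igkv1-110 (18.04%) led, and at 12 weeks Igkv8-24 (13.03%), Igkv4-53 (15.03%) and Igkv8-16 (15.33%). Within each age from 6 weeks on, no segment led in more than 1 mouse. Among the 10 mice with at least 900 counts, pairs of the same age shared 3 to 7 of their 10 highest segments (median 5, 9 pairs) and pairs of different ages 2 to 7 (median 4, 36 pairs). The pairs at 12 weeks shared 6 or 7, those at 10 weeks 3 to 6 and those at 8 weeks 3 to 5. Igkv1-133 and Igkv10-96 were among the 10 highest in 8 of these 10 mice, and Igkv14-126 and Igkv8-24 in 7.

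Igkv14-126, a segment with no near-identical copy in the family and no overlapping gene, was the only one with a count in every mouse. Its counts were 14, 16 and 16 at 4 weeks, 197, 13 and 2 at 6 weeks, 387, 226 and 9 at 8 weeks, 618, 73 and 158 at 10 weeks and 246, 425 and 685 at 12 weeks. The 3 youngest mice were alike, at 0.5237, 0.6838 and 0.5787 CPM, while the sum of all other segments in them was 259, 1 and 13 counts. At the ages in between, mice of the same age lay far apart, and all 12-week mice were above all 4-week mice. The log2 increase from 4 to 12 weeks was 4.61 (SE 1.52, adjusted p = 0.0219, edgeR quasi-likelihood test). This call was lost without any 1 of the 3 mice at 4 weeks (adjusted p = 0.0656, 0.062 and 0.0692) or without replicate 3 at 12 weeks (adjusted p = 0.0547), and the test of any change over the 5 ages did not pass (adjusted p = 0.106).

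Igkv8-24 had the most counts of all segments, 10063 in total, of which 4640 were in a single mouse. It had 15, 0 and 0 counts at 4 weeks, 0, 0 and 9 at 6 weeks, 1, 343 and 4640 at 8 weeks, 613, 251 and 673 at 10 weeks and 1068, 2097 and 353 at 12 weeks. The 8-week mice thus spanned from 1 count to the highest value of any segment in any mouse. From 4 to 12 weeks it rose by 7.62 log2 units (SE 2.04, adjusted p = 0.00747). Without replicate 1 at 4 weeks, the only mouse of its age with a count, the fitted difference was 13.15 (adjusted p = 0.0243), a size that depends on the prior count of the fit.

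Igkv6-32 was absent at 4 weeks (0 counts in 3 mice) and had 0, 5 and 43 counts at 6 weeks, 22, 2115 and 854 at 8 weeks, 286, 801 and 149 at 10 weeks and 175, 180 and 1043 at 12 weeks. Its highest value was again in an 8-week mouse, replicate 2. Against the floor of 3 counts per library, the lowest 12-week mouse was at least 44.2-fold higher than the 4-week mice, and the test passed (adjusted p = 0.00779).

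Igkv8-16, of the same kappa family as Igkv8-24, had a different course. It had 1, 0 and 0 counts at 4 weeks, none at 6 weeks, 44, 16 and 2 at 8 weeks, 1188, 116 and 215 at 10 weeks and 774, 448 and 1714 at 12 weeks. All mice at 10 and 12 weeks lay above all younger mice, and 12 weeks was at least 117-fold above the floor of the 4-week libraries (adjusted p = 0.000795). Igkv15-103 varied little between the 12-week mice, with 154, 181 and 176 counts (5.523 ± 0.5296 CPM, SD, n = 3), after 0 counts at 4 weeks and 0, 22 and 18 at 6 weeks (at least 38.9-fold higher at 12 than at 4 weeks, adjusted p = 0.000325).

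Igkv1-133 and Igkv4-53 were already present in replicate 1 at 4 weeks, with 78 and 52 counts, and at 0 in its 2 age mates. At 12 weeks Igkv1-133 had 675, 1394 and 622 counts and Igkv4-53 364, 2269 and 606. They rose from 4 to 12 weeks by 4.89 (SE 1.36, adjusted p = 0.00922) and 5.74 (SE 1.56, adjusted p = 0.00804) log2 units. Replicate 1 at 4 weeks set the size of these values, and without it the 4-week mice were at 0 and the fitted differences were 12.76 and 13.04, which depend on the prior count of the fit. Igkv10-96 rose by 7.65 log2 units (SE 1.81, adjusted p = 0.00377) and peaked at 2473 counts in replicate 2 at 10 weeks. Igkv1-135 rose by 6.52 (SE 1.51, adjusted p = 0.00337), with 2136 counts in replicate 1 at 10 weeks against 178 and 116 in the other two. Replicate 1 at 4 weeks, with 5 and 6 counts of these segments against 0 in its age mates, again set the size, and without it the fitted differences were 11.66 and 10.78 (adjusted p = 0.0152 and 0.0102). Other segments were high in 1 mouse alone, such as Igkv3-4 with 2139 of its 3634 counts in replicate 2 at 10 weeks.

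**Figure D3:**
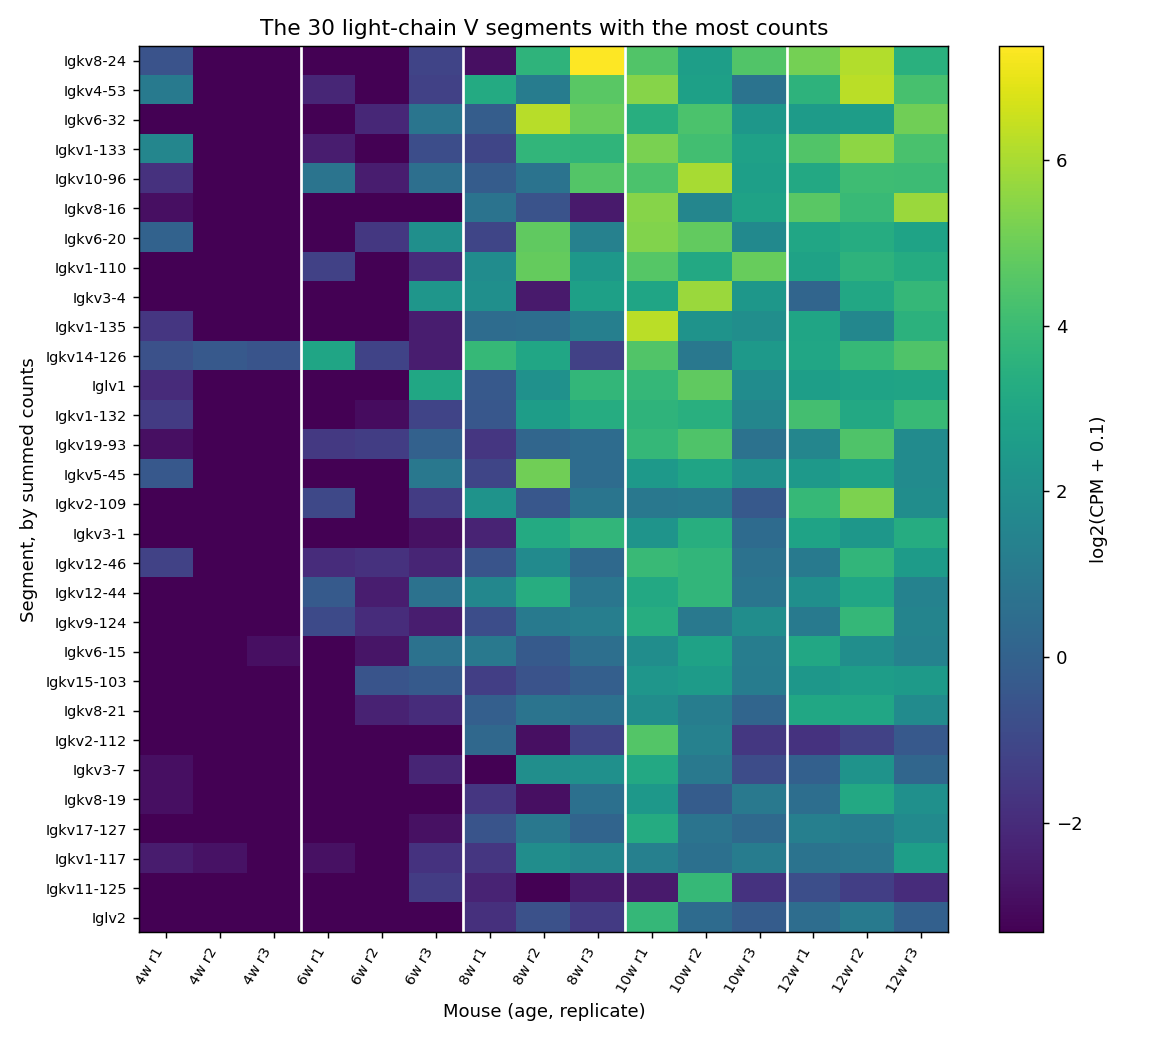
Level of the 30 light-chain V segments with the most counts, as log2(CPM + 0.1), in each of the 15 mice. Rows are segments in order of summed counts, columns are mice by age, and white lines separate the ages. Single bright cells mark segments high in 1 mouse, such as Igkv8-24 with 4640 counts in replicate 3 at 8 weeks.

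The comparisons of adjacent ages tested each segment against the spread between mice. A segment passed the filter on low counts mostly through the older ages where it was high, so the counts below describe the 68 segments that passed and not all 163. The 33 segments that had counts but were not tested held 1266 counts in all. Between 4 and 6 weeks no segment had an adjusted p under 0.05 in the edgeR quasi-likelihood test, against 0.0906% of all genes tested in either direction. DESeq2 called 5 and the edgeR exact test 0. Here and below, shares of all genes are those of the quasi-likelihood fit of all 15 mice. They were not computed for the other tests or with mice left out, so segment counts under those settings have no such share beside them. With the study's threshold of a fold change of at least 1.5 and an unadjusted p under 0.05, 7 of 68 were higher (1.15% of all genes) and 0 lower (1.75% of all genes). These were Igkv14-111, Igkv15-103, Igkv19-93, Igkv12-44, Igkv8-21, Igkv6-15 and Iglv1, listed after their values were seen, and 5 of them had 0 counts in at least 1 mouse at 6 weeks.

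Between 6 and 8 weeks no gene of any kind reached an adjusted p under 0.05 (0% of all genes, 0 of 68 segments), while the edgeR exact test called 7 segments and DESeq2 18. Leaving out replicate 1 at 8 weeks, the mouse with the fewest light-chain counts of that age, gave 10. With the study's threshold, 30 of 68 segments were higher, against 8.4% of all genes, and 0 were lower, against 1.42%. They included the segments that led single 8-week mice, Igkv8-24 and Igkv6-32, together with Igkv1-110 (98, 800 and 144 counts at 8 weeks against 8, 0 and 4 at 6 weeks) and Igkv4-53 (253, 61 and 698 against 3, 0 and 8).

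Between 8 and 10 weeks 14 of 68 segments rose with an adjusted p under 0.05, against 8.4% of all genes, and 0 fell, against 8.37%. The edgeR exact test called 8 and DESeq2 17, and no segment was lower at an unadjusted p under 0.05. The 14 were Igkv2-137, Igkv1-135, Igkv9-120, Igkv15-103, Igkv19-93, Igkv4-79, Igkv4-61, Igkv4-56, Igkv4-55, Igkv12-41, Igkv12-38, Igkv8-16, Igkv6-14 and Iglv2, listed after their values were seen. The segments that led the 8-week mice, Igkv14-126, Igkv6-32 and Igkv8-24, were not among them. Among the 14, Igkv15-103 rose by 2.89 log2 units (SE 0.70, adjusted p = 0.0298), Igkv8-16 by 4.55 (SE 1.10, adjusted p = 0.0298) and Igkv1-135 by 4.10 (SE 1.08, adjusted p = 0.031). The count of 14 was lost when single mice were left out. It was 0 without replicate 1 or 2 at 8 weeks or replicate 1 or 2 at 10 weeks, 24 without replicate 3 at 10 weeks, 0 in a fit of the 2 ages alone and 7 without the 2 mice with enterocyte genes.

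Between 10 and 12 weeks no gene had an adjusted p under 0.05 in the quasi-likelihood test (0% of all genes, 0 of 68 segments), and the exact test called 1 segment and DESeq2 0. With the study's threshold 4 segments were higher, Igkv2-109, Igkv4-74, Igkv8-21 and Igkv3-5 (1.61% of all genes), and 4 lower, Igkv2-112, Igkv4-61, Igkv4-56 and Igkv4-55 (0.562% of all genes), named after their values were seen. Igkv2-109 had 51, 81 and 21 counts at 10 weeks and 434, 1149 and 118 at 12 weeks. Igkv2-112 went the other way, from 623, 101 and 7 counts to 6, 10 and 22, with a single 10-week mouse holding most of its counts. In this interval the 2 directions were equally frequent.

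From 4 to 12 weeks 60 of 68 segments rose, against 26.3% of all genes tested, and 0 fell, against 27.2%. Of the 68, 43 had 0 counts in all 3 mice at 4 weeks and could not fall. The shares of all genes are therefore given as background only. In 65 of 68 the mice of both ages did not overlap, against 30.3% of all genes that were higher without overlap. The test of any difference among the 5 ages passed for 56 of 68 segments, against 56% of all genes. Without the 2 mice with enterocyte genes the last count was 45. The count of 60 was 43 to 55 with 1 mouse left out, 53 without the 2 mice with enterocyte genes and 47 by the exact test. The 8 that did not pass were Igkv2-112, Igkv14-111, Igkv4-91, Igkv1-88, Igkv4-81, Igkv5-37, Igkv1-35 and Igkv8-28. The median fitted log2 difference was 7.34, against -0.05 over all genes, but 54 of the 68 had at most 3 counts in every 4-week mouse. With those set at their lower bound, the median of the 65 segments that then had a value was 2.77.

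The calls of some named segments were close to the threshold. Igkv6-20 rose by 4.69 log2 units (SE 1.78, adjusted p = 0.0411) and Igkv5-45 by 4.51 (SE 1.79, adjusted p = 0.0493). The first was lost when replicate 2 or 3 at 4 weeks or any 12-week mouse was left out (adjusted p = 0.062 to 0.121), and the second likewise (adjusted p = 0.0694 to 0.14), and both were lost without the 2 mice with enterocyte genes (adjusted p = 0.0672 and 0.0711). In these cases the log2 differences were 4.09 to 4.78 for Igkv6-20 and 3.91 to 4.73 for Igkv5-45. Igkv5-45 was also lost with DESeq2 (adjusted p = 0.0622) and without the filter on low counts (adjusted p = 0.0556). Without replicate 1 at 4 weeks, the only mouse of its age with counts of either segment, the fitted differences were 10.94 and 10.29 (adjusted p = 0.0422 and 0.0466). Igkv9-120, at 9, 7 and 18 counts at 12 weeks, was at least 1.82-fold above the 4-week floor (adjusted p = 0.0493). Its call was lost in the same 6 cases (adjusted p = 0.0556 to 0.137). Over all alternatives run, including ones not listed here, the call was lost in 7 for Igkv6-20, 9 for Igkv5-45 and 8 for Igkv9-120. Igkv3-4 was at least 8.09-fold higher (adjusted p = 0.0272) and was lost without any 1 of the 4-week mice or replicate 3 at 12 weeks (adjusted p = 0.0616 to 0.0675). Igkv1-110 and Igkv2-109 had 0 counts in all 3 mice at 4 weeks and were at least 55.1-fold (adjusted p = 0.000745) and 28.9-fold (adjusted p = 0.000664) higher at 12 weeks.

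The 3 lambda segments all rose from 4 to 12 weeks. Iglv1 had 4, 0 and 0 counts at 4 weeks, 0, 0 and 206 at 6 weeks, 19, 115 and 377 at 8 weeks, 386, 1067 and 107 at 10 weeks and 195, 220 and 238 at 12 weeks. The 12-week mice were close together (7.049 ± 0.6369 CPM, SD, n = 3), and replicate 3 stood alone at 6 weeks. The log2 increase from 4 to 12 weeks was 6.99 (SE 2.18, adjusted p = 0.0168), with an adjusted p of 0.0564 without replicate 2 and 0.0614 without replicate 3 at 4 weeks. Without replicate 1 at 4 weeks, which held the 4 counts, the fitted difference was 10.70 (adjusted p = 0.0464). Iglv1 overlaps 2010309G21Rik on the other strand, which had at most 2 counts in any mouse.

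Iglv2, the near-identical relative of Iglv1 shown above, had 0 counts in all 6 mice at 4 and 6 weeks and 5, 15 and 7 at 8 weeks. It then had 386, 49 and 23 counts at 10 weeks and 41, 59 and 28 at 12 weeks, at least 6.86-fold above the 4-week floor (adjusted p = 0.0125). In replicate 1 at 10 weeks Iglv2 and Iglv1 had the same count, 386, whereas in all other mice from 8 weeks Iglv1 was higher. Iglv3 had 1, 0 and 0 counts at 4 weeks and 28, 39 and 171 at 12 weeks, at least 7.08-fold higher (adjusted p = 0.00348).

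The lambda share of light-chain V counts was a few percent in most mice. At 8 weeks it was 1.59%, 1.845% and 4.423%, at 10 weeks 5.162%, 7.161% and 2.733%, and at 12 weeks 3.22%, 2.106% and 3.909%. The exact binomial 95% intervals, which cover counting error only, were narrow at these depths, for example 2.85% to 3.62% for the first 12-week mouse. Replicate 3 at 6 weeks stood apart at 23.01% (95% interval 20.3% to 25.9%, 208 of 904 counts). Its 2 age mates had 0 lambda V counts, for which the exact intervals reach 1.2% and 3.39% (the limit of 3 counts being 0.984% and 2.8%). At 4 weeks the share was 1.832% in replicate 1 and 0 in the others, where with 17 and 29 V counts the exact intervals reach 19.5% and 11.9% (the limit of 3 counts being 17.6% and 10.3%).

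The constant genes gave a different lambda share in most mice. Iglc counts made up 3.457%, 2.469% and 4.145% of Igkc plus Iglc at 8 weeks, 5.84%, 6.595% and 7.002% at 10 weeks and 6.733%, 5.712% and 6.861% at 12 weeks, and 11.46% in replicate 3 at 6 weeks. The means at 12 weeks were 6.435% ± 0.6297 from the constant genes and 3.078% ± 0.9098 from the V segments (SD, n = 3), with no overlap. In that age 22.14 to 31.85 Iglv counts were found per 100 Iglc counts, against 55.72 to 62.36 Igkv counts per 100 Igkc counts. Replicate 3 at 6 weeks was the only mouse with more Iglv than Iglc counts, at 119.5 per 100. By constant genes, replicates 1 and 2 at 6 weeks, with 0 Iglv counts, had 7 and 17 Iglc counts (1.602% and 5.862%). In replicate 2 the exact binomial interval of this share, 3.452% to 9.22%, lay above the upper limit of 3.39% from its V segments. At 4 weeks, where few counts limit the shares, Iglc counts were 32, 2 and 4 (9.014%, 7.692% and 7.018%), with 5, 0 and 0 Iglv counts. Iglc2 held most of the lambda constant counts at 12 weeks, with 693, 1007 and 1026, and Iglc1 had 134, 120 and 109. The order was reversed in replicate 3 at 6 weeks, with 103 Iglc1 and 54 Iglc2 counts.

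**Figure D4:**
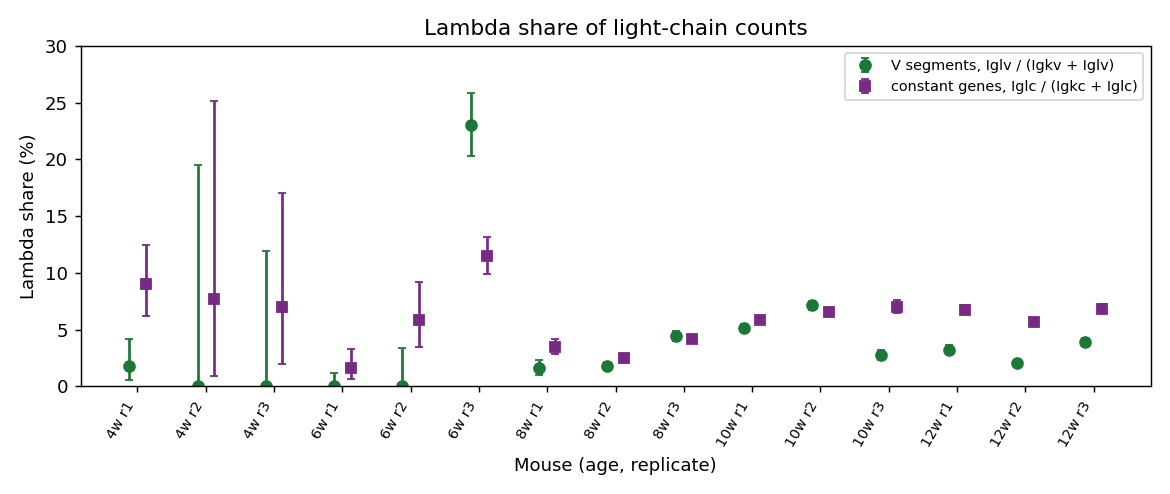
Lambda share of light-chain counts (%) in each mouse, from V segments (circles) and from constant genes (squares), with exact binomial 95% intervals that cover counting error only. Replicate 3 at 6 weeks stands apart at 23.01% by V segments. By constant genes it is the highest at 11.46%, but the intervals of all 3 mice at 4 weeks include that value. At 12 weeks the squares lie above the circles in all 3 mice.

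Kappa counts were spread unevenly over families, which are groups of V segments related in sequence and named by the number before the hyphen. As means over the 3 mice of an age, family 8 held 20.46% ± 26.01 of kappa counts at 8 weeks, 12.67% ± 8.442 at 10 weeks and 23.28% ± 3.39 at 12 weeks, and family 1 13.68% ± 5.705, 24.96% ± 11.66 and 19.89% ± 2.449. Family 6 held 19.69% ± 16.78, 11.09% ± 4.103 and 9.505% ± 4.658 (SD, n = 3). The order of the means differed between ages, but single mice weighed heavily in it, and it was not tested. In the 8-week mice family 8 held 5.407%, 5.479% and 50.49%, and family 6 held 9.633%, 39.06% and 10.39%. These 3 families comprise 12, 13 and 9 of the 160 rows, and family 4, the largest with 33 rows, held 12.19% ± 4.386 at 12 weeks. Family 14, to which Igkv14-126 belongs, held 94.12% and 55.17% of kappa counts in the 2 mice at 4 weeks with 17 and 29 light-chain V counts. It held 5.597% in their age mate with 273, which lay within the 12-week range of 3.538% to 7.475%. Family 8 took 50.49% of kappa counts in replicate 3 at 8 weeks, nearly all of it Igkv8-24, and 27.16%, 20.87% and 21.82% at 12 weeks.

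Segments from the whole kappa locus were present. Those within 1 Mb of the first J segment held 48.78% of kappa counts with 39.8% of the rows that had a count, those at 1 to 2 Mb 13.27% with 30.61%, and those beyond 2 Mb 37.95% with 29.59%. Segments on the minus strand, which are oriented opposite to the J segments and join by inversion, held 61.63% of the counts with 53.12% of all rows and 62.24% of the rows that had a count. Their share was 61.04% ± 0.77 at 12 weeks, 56.77% ± 2.77 at 10 weeks and 65.26% ± 17.63 at 8 weeks (SD, n = 3). The middle of the locus thus held a smaller share of counts than of rows with a count, and the 12-week mice were alike in strand use to within 2 percentage points.

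Pseudogene rows are annotated as unable to give a full light chain, and together they had 504 of the 92869 counts. Of the 60 rows 11 had a count, and Igkv4-73 (282 counts), Igkv4-56 (118) and Igkv2-116 (52) held most of them, named after their values were seen. Igkv4-73 reached 105 counts in replicate 2 at 10 weeks and 69 in replicate 3 at 12 weeks. The labels come from the GRCm38 reference.

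B-cell markers and most plasma cell genes tested rose over the same ages, but not in the same proportion to the V segments at each age. All 8 B-cell markers rose from 4 to 12 weeks, against 26.3% of all genes tested. All 8 also rose from 8 to 10 weeks, against 8.4%, and these calls were not checked with mice left out. Of 7 plasma cell genes tested at 4 against 12 weeks, 5 rose and 2 fell, against 26.3% and 27.2% of all genes. Jchain, which links antibody units in secreted IgM and IgA, rose by 6.37 log2 units (SE 1.15, adjusted p = 0.000848), and Mzb1, a chaperone of antibody assembly, by 5.33 (SE 0.81, adjusted p = 0.000393). Xbp1 fell by 0.35 log2 units (adjusted p = 0.00704) and Derl3 fell by 1.56 (adjusted p = 0.000162). Irf4 rose by 5.03 log2 units, Sdc1 by 0.98 and Prdm1 by 0.83, and the median of the 7 was 0.98. Xbp1 and Derl3 act in protein folding and disposal in the endoplasmic reticulum of secretory cells in general. Xbp1 had 6261 to 8308 counts at 4 weeks, and which cells held its RNA was not tested.

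Relative to the summed B-cell markers, light-chain V counts were higher at 8 than at 12 weeks. The ratio was 1.188, 4.698 and 2.593 V counts per B-cell marker count at 8 weeks, 1.099, 1.381 and 0.8344 at 10 weeks and 0.7564, 0.8859 and 0.6516 at 12 weeks. It was 1.252, 0.07489 and 0.1933 at 4 weeks and 1.495, 0.2078 and 1.512 at 6 weeks, so that 1 mouse at 4 weeks and 2 at 6 weeks lay above replicate 1 at 8 weeks. All 8-week mice lay above all 12-week mice, and replicate 1 at 8 weeks lay within the 10-week range. Jchain counts per B-cell marker count were 0.6651, 0.03084 and 0.16 at 4 weeks and 0.4314, 0.2311 and 1.064 at 6 weeks. They were 0.7856, 2.249 and 1.575 at 8 weeks, 0.6772, 0.7551 and 0.3789 at 10 weeks and 0.3582, 0.4578 and 0.3088 at 12 weeks. Replicate 3 at 6 weeks thus lay above replicate 1 at 8 weeks.

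The ratio at 4 and 6 weeks depended on 1 marker, Cd79a, which had 125 to 179 counts at 4 weeks when its partner Cd79b had 0 to 12. Without Cd79a, an alternative chosen after seeing the data, the V ratio was 4.403, 0.3542 and 1.16 at 4 weeks, 3.72, 1.126 and 3.15 at 6 weeks and 1.643, 6.204 and 3.329 at 8 weeks. These ages then overlapped. At 12 weeks it was 0.9472, 1.087 and 0.8045, again below all 8-week mice. The Jchain ratio without Cd79a was 2.339, 0.1458 and 0.96 at 4 weeks and 1.073, 1.253 and 2.216 at 6 weeks. It was 1.086, 2.97 and 2.022 at 8 weeks, so that these ages overlapped as well, and 0.4486, 0.5619 and 0.3812 at 12 weeks.

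**Figure D5:**
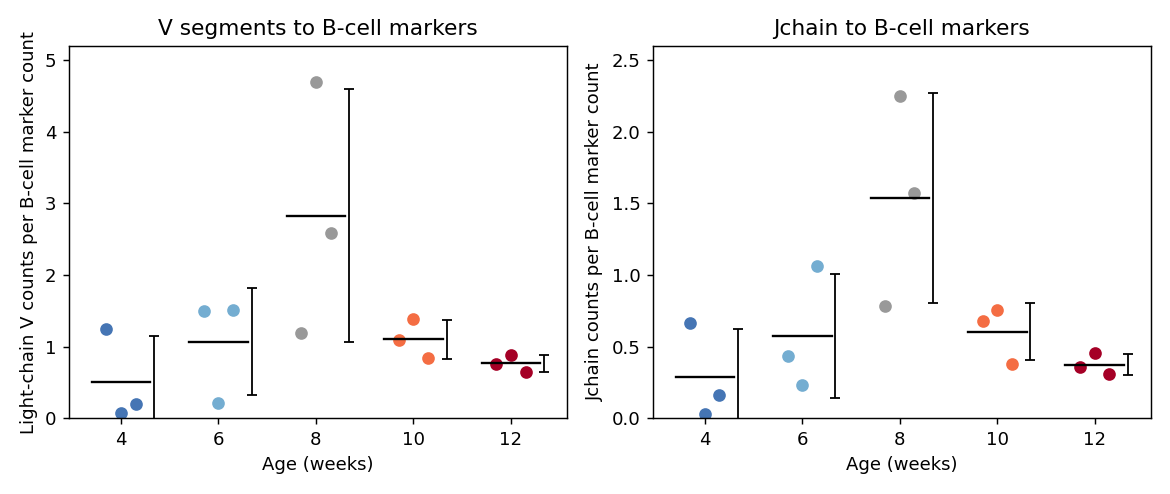
Light-chain V counts (left) and Jchain counts (right) per summed count of 8 B-cell markers, for each mouse (points) by age in weeks, with the mean of 3 mice (line) and its SD (bar, cut off at 0). At 8 weeks the V ratio reaches 4.698, and at 12 weeks all mice lie below 1.

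Genes of some other cell types also rose with age, and their part in these results was not tested. All 8 T-cell genes, all 5 germinal centre genes and all 6 genes of lymph node stroma and vessels rose from 4 to 12 weeks. The share of all genes tested that rose was 26.3%. The summed counts of the lymph node list were 101 to 338 at 4 weeks, 158 to 314 at 6 weeks, 990 to 2653 at 8 weeks, 3322 to 9795 at 10 weeks and 10402 to 15396 at 12 weeks. The T-cell sums were 81 to 948 at 4 weeks, 50 to 925 at 6 weeks and 263 to 5056 at 8 weeks. They were 5890 to 15811 at 10 weeks and 10338 to 14927 at 12 weeks. Replicate 1 at 8 weeks had 263, below the 948 of replicate 1 at 4 weeks, although its light-chain V counts were higher. Of 5 acinar genes, 0 passed the edgeR quasi-likelihood test in that comparison, also at an unadjusted p under 0.05, and their sums varied between mice from 16797 to 244414 counts. Of the enterocyte list, Vil1 alone could be tested (adjusted p = 0.257). Of 7 genes of light-chain recombination and of the surrogate light chain, Rag1, Rag2, Vpreb2 and Igll1 were at 0 to 2 counts in every mouse and Vpreb1 at 0 to 9. The other two, which were the only ones that could be tested, rose from 4 to 12 weeks. Dntt, the enzyme that adds bases at the joins of antigen receptor genes, had 40, 9 and 39 counts at 12 weeks (adjusted p = 0.00758) and Vpreb3 44, 60 and 62 (adjusted p = 0.000754), and they reached 57 and 62 counts in a single mouse.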

How the data were processed

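Polyadenylated RNA of islets from 15 NOD females was sequenced as read pairs. Per the study's methods, the authors trimmed, aligned and counted the reads in CLC Genomics Workbench with default settings, and the submitters' notes name the mm10 build. The values used are raw counts per gene, as deposited. How reads that match several genes were divided, and whether strand was used, is not given in the sources used here. Another 45 per-sample columns (RPKM, TPM and CPM) were not used here.

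All 163 rows matched GENCODE M21 by gene ID and region. Counts were fitted with edgeR 4.0.16 in R 4.3.3 over all 15 samples, with filterByExpr, TMM scaling, a mean per age and no covariate. Contrasts were tested by glmQLFTest with Benjamini-Hochberg adjustment over all 16554 genes tested. Each SE is the absolute log2 difference divided by the square root of the F statistic. It thus follows from the test and is not a separate estimate of the spread. The script was also tested on simulated data. A floor of 3 counts was used, and where every younger mouse was at or under it, the fold is a lower bound per library. Sums, shares and detection were computed per mouse with no test, and 95% intervals are exact binomial (Clopper-Pearson, scipy 1.17.1). Thinning to 900 counts used expected numbers for segments and 200 random draws for shares.

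The segments named were the lambda segments, the 10 kappa segments with the most counts, the highest segment of each mouse, the 5 largest and 5 smallest called increases at 12 against 4 weeks, and the 3 with the most counts at 4 and at 6 weeks. Others are marked as named after their values were seen. Members and gene lists were chosen with earlier results of these data known. The alternatives were DESeq2 1.42.0 and its size factors, library totals, the edgeR exact test, no filter on low counts, the ages compared alone, each mouse left out and the replicate number as a block. Leaving out the 2 mice with enterocyte genes was chosen after seeing the data. Depth per mouse limits shares at 4 and 6 weeks, where 17 to 904 light-chain V counts were present.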

Additional observations from a re-analysis of the deposited data

How the results depend on the processing

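The increase in summed light-chain V level from 4 to 12 weeks kept its direction under every alternative run, from 6.71 to 8.53 log2 units with 1 mouse left out. The number of segments called at 12 against 4 weeks was 43 to 55 with 1 mouse left out, and that of segments that changed at any age 52 to 64 (45 without the 2 mice with enterocyte genes). At 6 against 4 weeks it was 0 in each such fit and 5 with DESeq2. At 8 against 6 weeks it was 0 to 10 with 1 mouse left out, 7 with the edgeR exact test and 18 with DESeq2. At 10 against 8 weeks, where 14 were called, it was 0 to 24 with 1 mouse left out, 0 with the 2 ages alone, 8 with the exact test and 7 without the 2 mice with enterocyte genes. At 12 against 10 weeks it was 0 with 1 mouse left out and 1 with the exact test. The causes of these shifts were not tested, and the shares of all genes called under these alternatives were not computed.

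With the replicate number as a block, 0 segments were called at 10 against 8 weeks, 54 at 12 against 4 weeks and 52 at any age. Samples of the same number did not deviate together consistently, with correlations from -0.504 to 0.509 and 3 of 15 pairs over 0.1. Replicates 1 and 3 reached 0.509 and 0.489 at 8 against 6 weeks, but -0.504 and -0.463 at 6 against 4 weeks. The numbers were therefore not taken as a pairing.

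At 12 weeks the mean number of segments detected, 87.67, was 74.67 at a minimum of 4 counts, 62.67 at a minimum of 10 and 87.0 to 88.0 with 1 mouse left out. The lambda share, 3.078%, was 6.435% by constant genes and 2.663% to 3.564% with 1 mouse left out. The share of the 5 highest segments was 42.26% to 46.36% with 1 mouse left out. Of 250 values of 18 named segments at 12 against 4 weeks under these alternatives, 216 kept their call, 34 lost it and 0 reversed. The few counts at 4 and 6 weeks limit any statement on shares there.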
